A study of Homo sapiens with 30 samples.

Results

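The genes described are 10 human genes out of 60656 listed in the deposited tables: MYC, 2 long RNA genes beside it (CASC11 and PVT1), the shared partner MAX, and 6 genes whose products compete with MYC for MAX (MXD1, MXD3, MXD4, MXI1, MNT and MGA). They were chosen by gene symbol, and each symbol was matched by gene ID in the table of 4 lines and in the table of the resistant pair. RNA was sequenced from lines of diffuse large B cell lymphoma (DLBCL), all labelled wild type, in 30 libraries that form 10 groups of 3. SUDHL5, HT, OCI-LY3 and OCI-LY19 cells were each harvested after 24 h in 0.2 µM doxorubicin and, untreated, at 0 h. OCI-LY19R is a derivative of OCI-LY19 with acquired doxorubicin resistance, held in 20 nM doxorubicin until 1 week before use, and OCI-LY19S is its parental culture, grown without the drug. Doxorubicin is an anthracycline that traps topoisomerase II on DNA and breaks the strands. No untreated library was harvested at 24 h, so effects of the drug and of a day in culture cannot be told apart, and OCI-LY19R is a single derivative. The labels call the replicates independent experiments. Titles of treated and untreated libraries alike carry the word ctrl, and the groups follow the treatment label.

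MYC is a transcription factor that binds DNA only as a dimer with MAX, at sites such as the E-box CACGTG, and in growing B cells it raises the transcription of genes for ribosome assembly, nucleotide supply and metabolism. The MXD proteins, MXI1 (also called MXD2), MNT and MGA dimerise with the same MAX, bind the same kind of site and recruit repressor complexes, so the balance of the partners sets whether such sites are activated or repressed. In DLBCL the MYC gene is often rearranged or overexpressed. Transcript levels say nothing of the amount of each protein, and MYC protein is short-lived.

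Levels are given as FPKM, reads scaled to gene length and to the reads of the library assigned to genes. Changes are differences of mean log2(FPKM + 1) with their standard errors, which understates the change of low genes. A change is said to pass at an adjusted p below 0.05 in limma, with Benjamini-Hochberg adjustment over all 17645 genes tested in the 4 lines or all 12785 tested in OCI-LY19R and OCI-LY19S. Reads assigned to genes per library ranged over 24042778 to 27453170 for OCI-LY3 and 16067405 to 38337869 for HT. SUDHL5 had 17849508 to 28327767 and OCI-LY19 25630629 to 35270765, while OCI-LY19R had 23782084 to 33439107 and OCI-LY19S 18354091 to 121769119. In every library each of the 10 genes rested on at least 90 reads, the fewest being for MXD1, and MYC on at least 1134. All 6 B cell markers examined had a group mean of at least 1 FPKM in all 10 groups, and their summed level ran from 264 to 1507 FPKM over the libraries. Summed T cell markers did not exceed 17.0 FPKM, myeloid markers 32.9 and stromal, epithelial or endothelial markers 13.3. Several of these sums moved with the groups. All 6 B cell markers fell in OCI-LY3 (680 to 852 FPKM in sum in treated and 1255 to 1507 in untreated cells), 4 fell and 1 rose in HT, 2 fell and 2 rose in OCI-LY19, and 5 rose and 0 fell in SUDHL5 (1202 to 1237 in treated and 1011 to 1017 in untreated cells). The 5 T cell markers summed to 14.8 to 17.0 FPKM in treated SUDHL5 against 3.19 to 3.76 in untreated SUDHL5. The 5 myeloid markers summed to 19.6 to 32.9 FPKM in treated against 5.19 to 9.24 in untreated OCI-LY19, and to 5.23 to 6.23 in treated against 0.27 to 0.46 in untreated SUDHL5. The 6 stromal, epithelial or endothelial markers summed to 4.57 to 13.3 FPKM in OCI-LY19R against 0.15 to 0.26 in OCI-LY19S. Their part in the results was not tested.

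MYC fell after doxorubicin in all 4 lines, most in OCI-LY3. Its level there was 17.3, 18.0 and 18.9 FPKM in the treated libraries and 115, 126 and 131 FPKM in the untreated ones, a log2 change of -2.71 ± 0.18 (SE; adjusted p = 4.15e-10). HT had 16.1, 23.7 and 13.8 FPKM after the drug and 46.5, 48.6 and 33.7 FPKM at 0 h, a change of -1.24 ± 0.18 (adjusted p = 3.42e-05). The spread behind this p was shared by all lines, and with the libraries of HT alone the adjusted p was 0.0245. In neither line did the treated libraries overlap the untreated ones, which alone is common here: it held for 57.4% of all genes tested in OCI-LY3, 42.2% in HT, 61.2% in OCI-LY19 and 59.9% in SUDHL5. OCI-LY19 kept the highest MYC level under the drug, with 93.7, 147 and 87.7 FPKM in treated cells against 169, 161 and 190 FPKM in untreated cells. Its change of -0.69 ± 0.18 passed (adjusted p = 0.00218), but not after quantile normalization, which gave -0.42 (adjusted p = 0.0516). Leaving out 1 library at a time moved the change over -0.93 to -0.56 and kept the call. SUDHL5 had 12.5, 14.0 and 13.9 FPKM after treatment and 23.3, 23.5 and 21.5 FPKM before it, a change of -0.72 ± 0.18 (adjusted p = 0.00281). The groups were again separate in both lines. In such bulk libraries fewer MYC-expressing cells and less MYC RNA per cell cannot be told apart.

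The fall of MYC in OCI-LY3 differed from that in each of the other 3 lines when the differences were tested directly. The change in OCI-LY3 minus that in HT was -1.48 ± 0.25 (adjusted p = 0.000215), minus that in OCI-LY19 -2.02 ± 0.25 (adjusted p = 1.86e-06) and minus that in SUDHL5 -1.99 ± 0.25 (adjusted p = 2.3e-06). The 3 other pairs of lines did not pass, with differences of -0.54 (HT minus OCI-LY19), -0.52 (HT minus SUDHL5) and 0.03 (OCI-LY19 minus SUDHL5), each ± 0.25. Treated OCI-LY3 and treated HT cells ended at close MYC levels, 18.1 ± 0.84 and 17.9 ± 5.2 FPKM (SD, n = 3 each), although untreated OCI-LY3 held 124 ± 8.1 and untreated HT 43.0 ± 8.0 FPKM.

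Before the drug the lines stood in the order OCI-LY19, OCI-LY3, HT and SUDHL5 for MYC, and each neighbour in that order differed. OCI-LY19 at 173 ± 14 FPKM was above OCI-LY3 at 124 ± 8.1 FPKM (SD, n = 3 each; adjusted p = 0.0234). OCI-LY3 was above HT (adjusted p = 2.77e-07), and HT was above SUDHL5, which held 22.8 ± 1.1 FPKM (adjusted p = 0.000218). This order of levels was not the order of the falls.

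**Figure D1:**
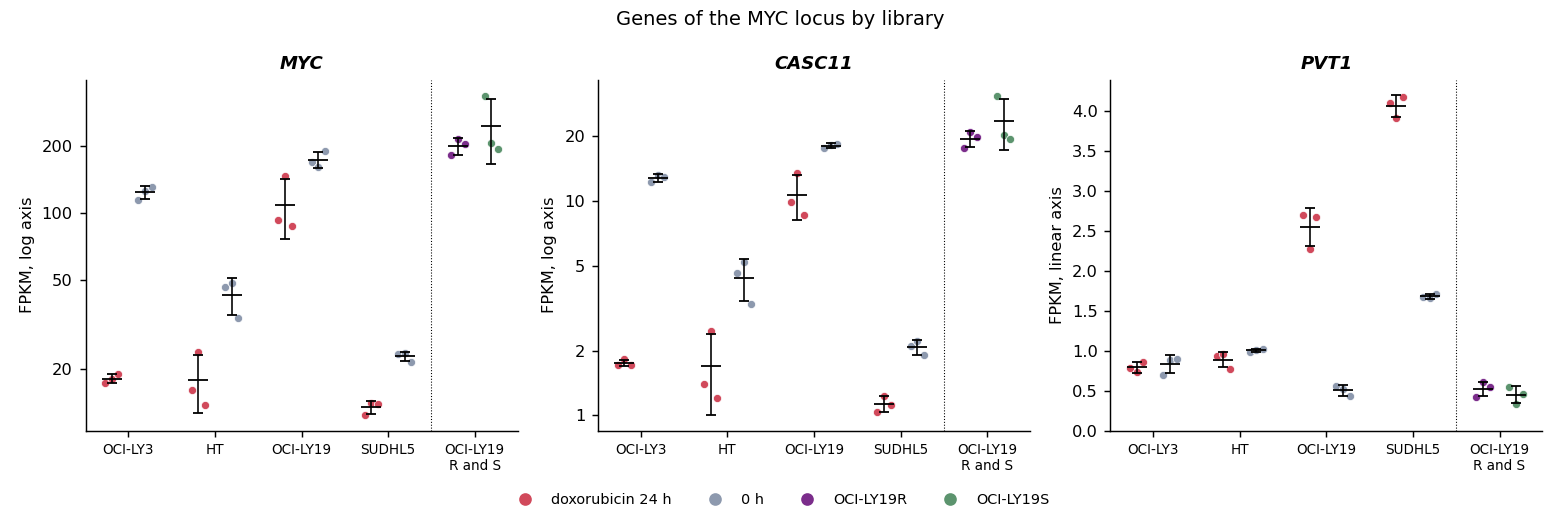
FPKM of MYC, CASC11 (both on log axes) and PVT1 (linear axis) in each of the 30 libraries, with the mean and SD of 3 libraries a group; treated libraries stand left of untreated ones and OCI-LY19R left of OCI-LY19S. MYC and CASC11 are lower in all treated groups, while PVT1 is higher in treated OCI-LY19 and SUDHL5 and near 1 FPKM or below in both groups of OCI-LY3 and HT.

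CASC11, a long RNA gene read in the opposite direction from just upstream of MYC, moved with MYC. In GENCODE 29 on GRCh38 it lies on the minus strand at chr8:127686343-127733967, and MYC on the plus strand at chr8:127735434-127741434, with 1467 bases between the 2 starts and 0 shared exon bases. CASC11 fell in OCI-LY3, where it had 1.73, 1.83 and 1.72 FPKM after treatment against 12.2, 13.2 and 12.9 FPKM at 0 h, a change of -2.32 ± 0.15 (adjusted p = 4.15e-10). It also fell in HT by 1.01 ± 0.15, in OCI-LY19 by 0.73 ± 0.15 and in SUDHL5 by 0.53 ± 0.15 on the log2 scale (adjusted p = 5.68e-05, 0.000335 and 0.00833). In no line did treated and untreated libraries overlap.

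The CASC11 level was a nearly fixed share of the MYC level, between 8.09% and 11.3% in all 30 libraries with a median of 9.79%. Over the 8 group means of the 4 lines, Pearson's r between the log2 levels of CASC11 and MYC was 0.999, a description of points that share libraries. The deposited values use later gene models for both genes than GENCODE 29, and the strand setting of the counting is not given in the sources used here. Reads of MYC and of an antisense neighbour cannot be told apart in these tables, so the CASC11 values are uncertain as a second reading of the locus.

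PVT1, a long RNA gene downstream of MYC on the same strand (chr8:127794533-128101253, starting 59099 bases after the MYC start), did not follow MYC. It rose in OCI-LY19, with 2.70, 2.27 and 2.67 FPKM in treated cells against 0.56, 0.52 and 0.43 FPKM in untreated cells, a change of 1.24 ± 0.06 (adjusted p = 4.64e-12). It rose in SUDHL5 as well, with 4.10, 3.91 and 4.17 FPKM after treatment and 1.67, 1.65 and 1.71 FPKM before it (0.92 ± 0.06, adjusted p = 9.92e-10). The libraries of the groups were far apart in both lines. In OCI-LY3 the treated mean was 0.79 ± 0.07 FPKM and the untreated mean 0.83 ± 0.11 FPKM (SD, n = 3 each), and the change of -0.03 ± 0.06 did not pass (adjusted p = 0.741). HT had 0.89 ± 0.10 FPKM after the drug and 1.0 ± 0.02 FPKM at 0 h, a change of -0.09 ± 0.06 that did not pass (adjusted p = 0.327), although its libraries did not overlap. Quantile normalization took both of these past the threshold, at -0.36 in OCI-LY3 and -0.23 in HT, and median-of-ratios scaling took OCI-LY3 to -0.15 (adjusted p = 0.0416).

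The PVT1 responses of OCI-LY19 and SUDHL5 differed from those of OCI-LY3 and HT in all 4 such pairs of lines, the smallest difference being -0.95 ± 0.09 between OCI-LY3 and SUDHL5 (adjusted p = 7.16e-08). As a share of the MYC level, PVT1 stood at 30.3 ± 2.5% in treated SUDHL5 and 7.38 ± 0.49% in untreated SUDHL5, and at 2.49 ± 0.82% in treated OCI-LY19 and 0.29 ± 0.06% in untreated OCI-LY19 (SD, n = 3 each). Per length PVT1 was a minor transcript in all libraries, at 0.33 to 4.17 FPKM. These values and shares rest on a PVT1 length of 24957 bases in the deposited values, against 4584 for MYC. By reads PVT1 exceeded MYC in treated SUDHL5, with 2896, 2551 and 1859 reads against 1618, 1679 and 1134. In every other group MYC had more reads.

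Few other genes around the locus could be tested. Of 20 names on a list of neighbours, 16 were found and 6 passed the filter on low values, of which the microRNA genes MIR1205 and MIR1208 never exceeded 6 reads. In OCI-LY19, 3 of the 6 rose and 1 fell, beside 34.5% of all genes higher and 23.7% lower: TRIB1, a pseudokinase upstream of MYC, averaged 19.6 ± 3.7 FPKM after treatment and 5.90 ± 0.40 FPKM before it (1.56, adjusted p = 1.13e-09), and LRATD2 averaged 8.66 ± 2.1 and 2.47 ± 0.45 FPKM (1.46, adjusted p = 5.85e-10). ASAP1 was the third to rise (0.41), and CYRIB was the one that fell (-0.30). In HT 1 of the 6 rose (ASAP1, 0.27, adjusted p = 0.0216) and 0 fell, and in SUDHL5 0 of the 6 passed. In OCI-LY3, TRIB1 was the 1 gene of the 6 to pass, and it fell, with 1.03 ± 0.14 FPKM in treated and 4.72 ± 0.77 FPKM in untreated cells (-1.49, adjusted p = 3.89e-09). TRIB1 in OCI-LY3 and ASAP1 were named after their values were seen.

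MAX, the shared partner of the network, passed in none of the 4 lines. Over all libraries its level lay between 11.8 and 21.2 FPKM. Treated and untreated means were 15.9 ± 0.68 and 16.7 ± 0.86 FPKM in OCI-LY3, 20.9 ± 0.38 and 20.0 ± 1.2 in HT, 17.3 ± 0.40 and 18.3 ± 1.1 in OCI-LY19, and 13.0 ± 0.46 and 12.1 ± 0.47 in SUDHL5 (SD, n = 3 each). The groups overlapped in all 4 lines. The log2 changes of -0.07, 0.06, -0.08 and 0.10, each ± 0.05, did not pass (adjusted p = 0.323, 0.407, 0.24 and 0.167). With median-of-ratios scaling MAX fell in OCI-LY3 (-0.33, adjusted p = 0.00023) and in OCI-LY19 (-0.17, adjusted p = 0.025), and quantile normalization gave -0.14 in OCI-LY3 (adjusted p = 0.0441). Among untreated lines SUDHL5 was lowest, below OCI-LY3 (adjusted p = 6.88e-07). HT did not differ from OCI-LY19, nor OCI-LY19 from OCI-LY3 (adjusted p = 0.0518 and 0.055), but HT was above OCI-LY3 (adjusted p = 0.00052).

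In GENCODE 29 on GRCh38 MAX lies on the minus strand of chr14:65006174-65102695. Of its other partners, MXD1 lies at chr2:69897688-69942945, MXI1 at chr10:110207605-110287365 and MGA at chr15:41621224-41773081, all on the plus strand. MXD3 lies at chr5:177301461-177312757, MXD4 at chr4:2247432-2262294 and MNT at chr17:2384060-2401118, all on the minus strand. All 7 are protein-coding.

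The antagonists followed different patterns among the lines. MXD1, a MAX partner that rises as cells leave the cell cycle and differentiate, rose in 3 lines. It had 5.65, 6.04 and 5.61 FPKM in treated OCI-LY3 against 2.85, 2.95 and 3.17 FPKM in untreated OCI-LY3 (0.76 ± 0.10, adjusted p = 3.97e-06). HT had 2.68, 2.81 and 3.40 FPKM after the drug and 1.30, 1.44 and 1.11 FPKM at 0 h (0.79 ± 0.10, adjusted p = 1.45e-05). OCI-LY19 had 7.02, 4.63 and 6.38 FPKM in treated and 1.88, 1.57 and 1.37 FPKM in untreated cells (1.42 ± 0.10, adjusted p = 9.01e-10). The groups did not overlap in these 3 lines. In SUDHL5, MXD1 had 2.97, 2.97 and 2.98 FPKM after treatment and 3.28, 3.07 and 3.49 FPKM before it, and the change of -0.11 ± 0.10 did not pass (adjusted p = 0.479), although those libraries did not overlap either. The response of SUDHL5 differed from each of the other 3 (differences of 0.87, 0.90 and 1.52, the largest adjusted p being 8.56e-05), and the rise in OCI-LY19 exceeded those in OCI-LY3 and HT (adjusted p = 0.00108 and 0.00179).

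MXI1, a close relative of MXD1, moved in opposite directions among the lines. It rose in OCI-LY3, with 7.10, 6.03 and 7.07 FPKM in treated and 4.47, 4.99 and 4.66 FPKM in untreated cells (0.44 ± 0.13, adjusted p = 0.00822), but this call was lost with median-of-ratios scaling (0.20, adjusted p = 0.212) and quantile normalization (0.17, adjusted p = 0.333). It rose in HT, with 3.75, 2.38 and 4.77 FPKM against 1.34, 1.47 and 1.35 FPKM at 0 h (0.92 ± 0.13, adjusted p = 3.53e-05). OCI-LY19 had 7.85, 5.89 and 6.95 FPKM after treatment and 3.86, 3.30 and 3.50 FPKM before it (0.79 ± 0.13, adjusted p = 3.77e-05). In SUDHL5, MXI1 fell instead, to 2.11, 1.87 and 1.71 FPKM in treated cells against 11.1, 10.7 and 10.5 FPKM in untreated cells (-2.02 ± 0.13, adjusted p = 4.56e-10). No group pair overlapped. SUDHL5 held the highest untreated level of the 4 lines (adjusted p = 8.15e-07 against OCI-LY3, the next) and the lowest treated mean, and its response differed from each of the other lines by 2.46 to 2.95 on the log2 scale (adjusted p at most 5.42e-09).

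MXD4 rose in OCI-LY19 and SUDHL5 by almost the same amount. Treated OCI-LY19 had 18.3, 18.2 and 15.4 FPKM against 5.80, 6.65 and 4.69 FPKM in untreated OCI-LY19 (1.45 ± 0.11, adjusted p = 1.85e-09). Treated SUDHL5 had 31.9, 32.4 and 31.7 FPKM against 11.4, 10.7 and 11.2 FPKM in untreated SUDHL5 (1.45 ± 0.11, adjusted p = 5.41e-09). The treated libraries were all above the untreated ones, and in treated SUDHL5 MXD4 stood above MYC itself. OCI-LY3 had 12.8, 12.5 and 12.4 FPKM in treated and 9.85, 12.4 and 12.7 FPKM in untreated cells, and HT 2.74, 3.28 and 2.52 FPKM and 3.03, 3.69 and 2.53 FPKM. In both of these lines the libraries overlapped and the changes of 0.11 ± 0.11 and -0.08 ± 0.11 did not pass (adjusted p = 0.459 and 0.66). The responses of OCI-LY19 and SUDHL5 differed from those of OCI-LY3 and HT in all 4 such pairs (adjusted p at most 1.15e-06), the same division of the lines as for PVT1.

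MXD3, a family member found in dividing cells, was the most abundant antagonist transcript per length in most groups and moved the other way. It fell in OCI-LY19, where treated cells had 8.98, 10.9 and 7.58 FPKM and untreated cells 18.3, 19.6 and 19.7 FPKM (-1.01 ± 0.10, adjusted p = 4.55e-08). That fall was larger than the change in each other line (adjusted p = 2.82e-05, 0.000127 and 0.00051). SUDHL5 had 20.8, 22.4 and 21.3 FPKM after treatment against 26.3, 28.0 and 26.7 FPKM before it (-0.32 ± 0.10, adjusted p = 0.0144), with no overlap. This call was lost with quantile normalization (adjusted p = 0.0614) and without untreated replicate 2 (adjusted p = 0.0531) or treated replicate 1 (adjusted p = 0.0505). HT averaged 24.5 ± 2.2 FPKM in treated and 28.7 ± 1.8 FPKM in untreated cells (SD, n = 3 each), and its change of -0.22 ± 0.10 did not pass (adjusted p = 0.0937), but it passed with the replicate number as a block (adjusted p = 0.0359) and with median-of-ratios scaling (-0.30, adjusted p = 0.0241). OCI-LY3 averaged 25.2 ± 1.7 FPKM after treatment and 27.5 ± 3.5 FPKM before it. Its change of -0.12 ± 0.10 did not pass (adjusted p = 0.341), except with median-of-ratios scaling (-0.38, adjusted p = 0.00261).

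The make-up of the MXD family by transcript was given as a share, with no test. In OCI-LY19 MXD3 was 23.2 ± 3.7% of the summed FPKM of MXD1, MXD3, MXD4 and MXI1 in treated cells and 63.9 ± 3.1% in untreated cells (SD, n = 3 each). In SUDHL5 it was 36.8 ± 0.76% and 51.8 ± 1.4%, in HT 72.1 ± 3.5% and 83.3 ± 2.4%, and in OCI-LY3 50.1 ± 1.6% and 58.7 ± 2.7% in treated and untreated cells.

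MNT, a MAX partner present in both resting and dividing cells, changed little. It rose in HT, with 6.92, 7.37 and 6.56 FPKM after treatment against 4.90, 4.84 and 3.82 FPKM at 0 h (0.53 ± 0.09, adjusted p = 0.000121). In OCI-LY3 it had 7.07, 7.13 and 6.10 FPKM in treated and 5.32, 5.91 and 5.61 FPKM in untreated cells, a change of 0.23 ± 0.09 that passed narrowly (adjusted p = 0.0294). That call was lost without any filter, on a TPM scale, with the libraries of OCI-LY3 alone, and without any of 4 single libraries (untreated replicates 1 and 3 and treated replicates 1 and 2, adjusted p = 0.103, 0.0592, 0.0985 and 0.101). With median-of-ratios scaling and quantile normalization the change was -0.01 and -0.02 (adjusted p = 0.977 and 0.89). OCI-LY19 averaged 5.87 ± 0.37 FPKM after treatment and 6.29 ± 0.88 FPKM before it, and SUDHL5 5.27 ± 0.19 and 4.92 ± 0.07 FPKM. Neither change passed (-0.08 ± 0.09 and 0.08 ± 0.09, adjusted p = 0.46 and 0.505), but with quantile normalization MNT fell in OCI-LY19 (-0.24, adjusted p = 0.0115). The response in HT exceeded that in OCI-LY19 and SUDHL5 (adjusted p = 0.00042 and 0.00687).

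MGA, a very large protein with a binding domain of its own beside the MAX-binding one and a subunit of a Polycomb complex, had its highest levels in HT. It fell in OCI-LY19, with 4.76, 4.71 and 4.81 FPKM in treated against 7.30, 5.76 and 6.33 FPKM in untreated cells (-0.37 ± 0.13, adjusted p = 0.0198). The groups were separate, but without untreated replicate 1 the call was lost (-0.29, adjusted p = 0.0938). It also fell in OCI-LY3, with 4.24, 4.47 and 3.26 FPKM after treatment and 5.68, 6.11 and 4.27 FPKM before it (-0.34 ± 0.13, adjusted p = 0.0301). Those groups overlapped, and the call was lost without any filter, with the libraries of OCI-LY3 alone and without any of 3 single libraries, untreated replicates 1 and 2 and treated replicate 3 (adjusted p = 0.0987, 0.139 and 0.167). It was kept under the other alternatives tried. HT averaged 7.43 ± 1.4 and 7.65 ± 1.4 FPKM and SUDHL5 3.71 ± 0.14 and 3.74 ± 0.12 FPKM in treated and untreated cells, and neither change passed (-0.04 and -0.01, each ± 0.13).

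**Figure D2:**
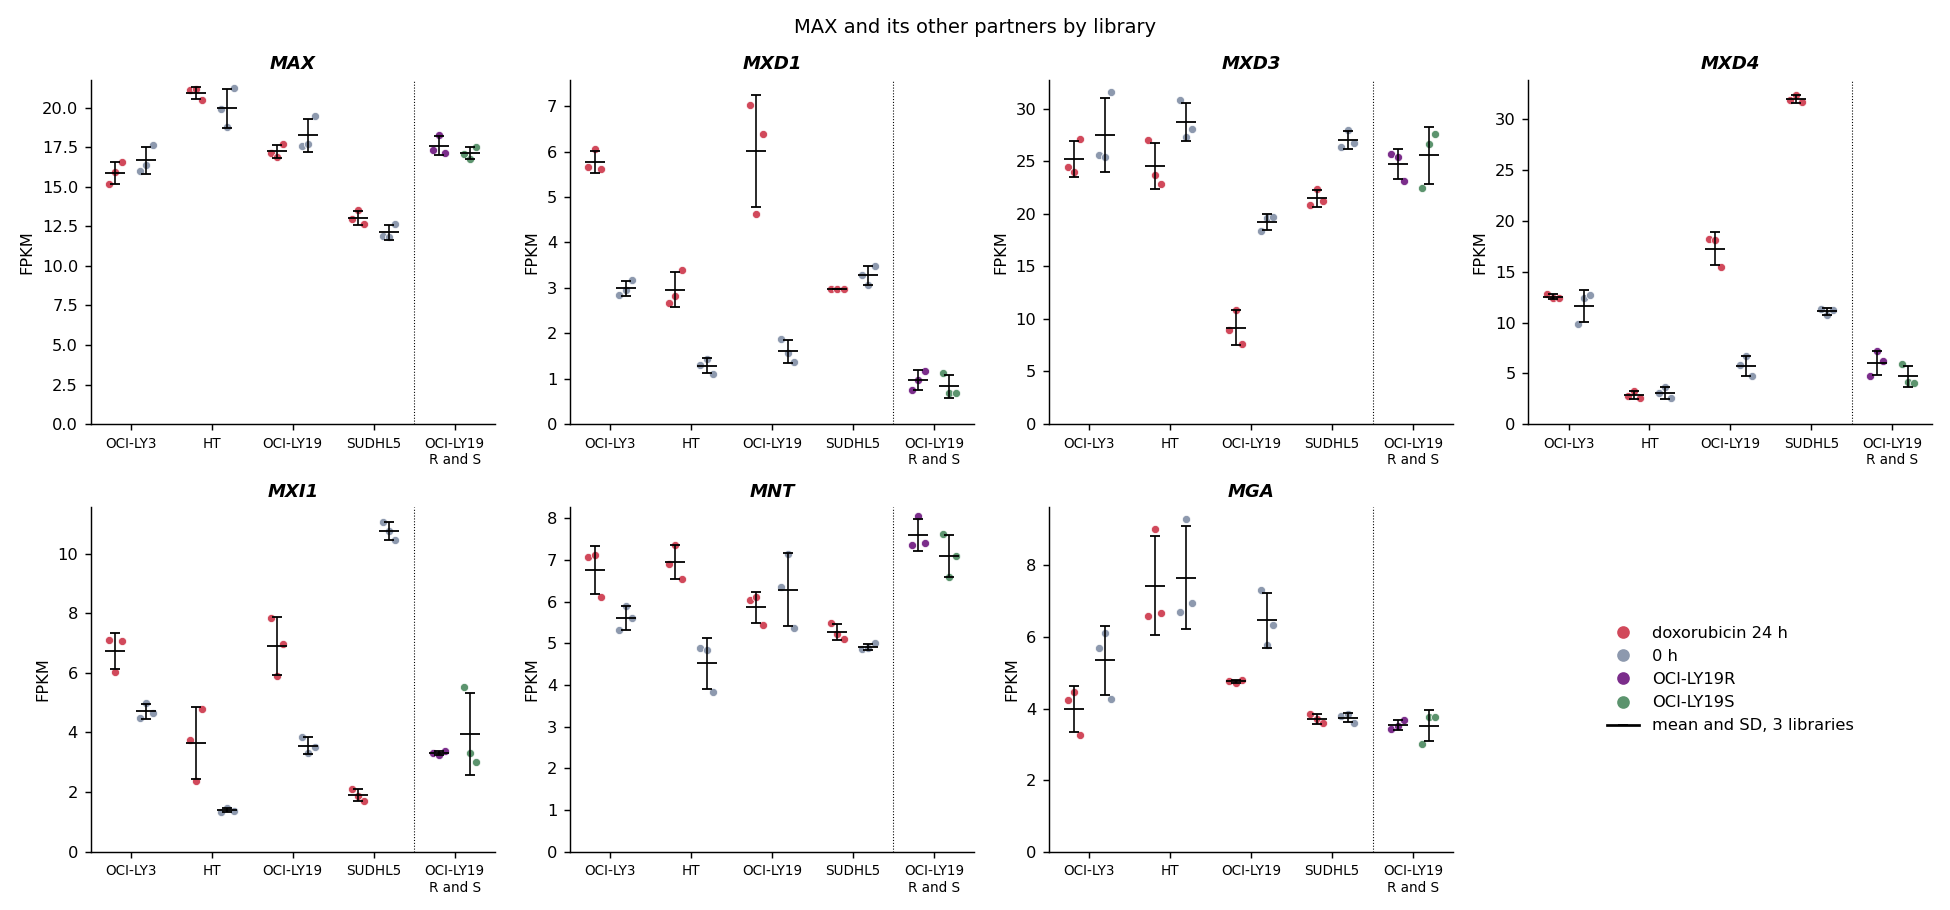
FPKM of MAX, MXD1, MXD3, MXD4, MXI1, MNT and MGA in each library (linear axes from 0), with the mean and SD of 3 libraries a group; treated groups stand left of untreated ones and OCI-LY19R left of OCI-LY19S. MXI1 is lower in treated SUDHL5 and higher in the other 3 treated lines, and MXD4 is higher in treated OCI-LY19 and SUDHL5.

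The E-box CACGTG, the site bound by MAX dimers, was sought in RefSeq windows of 300 bases on GRCh38.p14 (250 before and 50 after a gene's start). It reads the same on both strands. Windows were used for the 7 genes MAX, MXD1, MXD3, MXD4, MXI1, MNT and MGA, 12 windows in all, and 2 of the 12 held the site, against 7.26% of all 35116 windows. They belong to MXD4, which rose in OCI-LY19 and SUDHL5, and MNT, which rose in HT and narrowly in OCI-LY3. The windows of MXD1 and MXI1, which each rose in OCI-LY3, HT and OCI-LY19, held no such site. The stretches are shown because they carry the letters that a MAX dimer reads, with the site in capitals and both sequences on the minus strand. The site began at position -238 from the start in MXD4 and -193 in MNT. A match is a description and not a measured binding site.
MXD4, chr4:2262302-2262359: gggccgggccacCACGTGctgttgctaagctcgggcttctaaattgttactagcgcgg
MNT, chr17:2401208-2401293: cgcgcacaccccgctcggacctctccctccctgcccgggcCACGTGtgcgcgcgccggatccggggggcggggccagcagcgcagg

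Put together by line, 6 of the 10 genes passed in OCI-LY3 (3 higher and 3 lower), where 54.7% of all genes tested passed. HT had 5 (3 higher and 2 lower) beside 32.3% of all genes, OCI-LY19 had 8 (4 higher and 4 lower) beside 58.2%, and SUDHL5 had 6 (2 higher and 4 lower) beside 38.5%. The counts of members are near or above these shares, and with 10 genes nothing particular to them is read from that. MYC and CASC11 were the 2 genes that passed in the same direction in all 4 lines, and MAX was the 1 gene that passed in none. In OCI-LY3 the median change of all genes was 0.16 and 73.9% of the genes called were higher, but with median-of-ratios scaling these were 0.01 and 51.5%. In HT 70.9% of the calls were upward, and 55.9% with that scaling. Relative to that shift, the counts in OCI-LY3 were 1 higher and 6 lower with median-of-ratios scaling and 1 higher and 5 lower with quantile normalization.

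**Figure D3:**
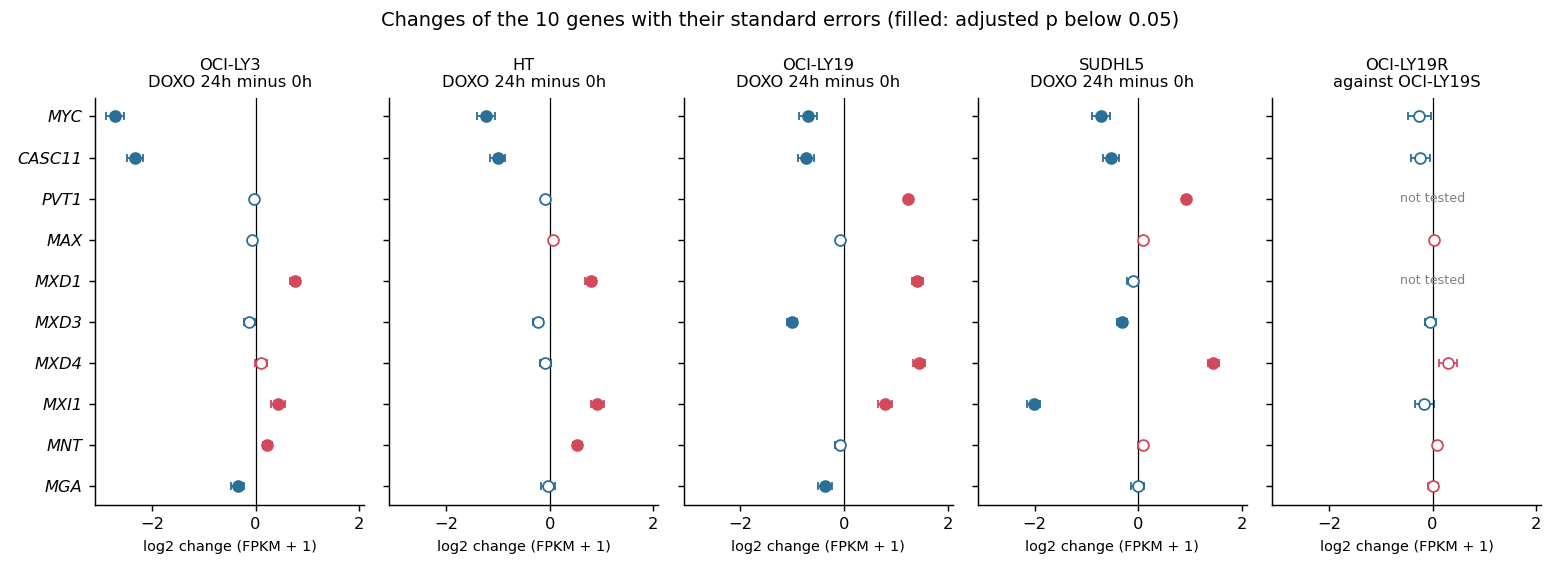
Log2 change of each gene with its standard error (bars) in the 4 lines (treated minus untreated) and in OCI-LY19R minus OCI-LY19S; filled points passed at an adjusted p below 0.05, open points did not. MYC and CASC11 are filled and negative in all 4 lines, MXI1 is negative in SUDHL5 and positive in the other 3 treated lines, and no point is filled for OCI-LY19R against OCI-LY19S.

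Responses differed among the 4 lines by limma's F test for 8 of the 10 genes, as they did for 72.2% of all genes. MAX (adjusted p = 0.0913) and MGA (adjusted p = 0.147) did not pass, but both passed with median-of-ratios scaling (adjusted p = 0.00123 and 0.018) and with quantile normalization (adjusted p = 0.0458 and 0.00819). Untreated levels differed among the lines for all 10 genes, beside 90.5% of all genes. The untreated orders were unlike: SUDHL5, lowest for MYC, was highest for MXI1 and PVT1, and OCI-LY19, highest for MYC, was lowest for MXD3 (adjusted p = 0.00027 against SUDHL5, the next) and for PVT1 (adjusted p = 0.000614 against OCI-LY3). HT was lowest for MXD4 (3.08 ± 0.58 FPKM, adjusted p = 1.22e-05 against OCI-LY19) and for MXI1 (1.39 ± 0.07 FPKM, adjusted p = 3.58e-06 against OCI-LY19). OCI-LY3 and SUDHL5 did not differ in untreated MXD1, MXD3 or MXD4 (adjusted p = 0.417, 0.894 and 0.691).

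Since all these proteins share MAX, the MYC level was also set against its competitors. MYC was 22.8 ± 0.79% of the summed FPKM of MYC, MXD1, MXD3, MXD4, MXI1, MNT and MGA in treated OCI-LY3 and 68.2 ± 0.36% in untreated OCI-LY3 (SD, n = 3 each). The shares were 26.7 ± 5.4% in treated and 47.7 ± 3.6% in untreated HT, and 16.6 ± 0.87% in treated and 27.2 ± 0.85% in untreated SUDHL5. In OCI-LY19 MYC remained the main transcript of the 7, at 67.9 ± 5.7% in treated and 80.1 ± 1.9% in untreated cells. The treated libraries lay below the untreated ones in every line. The competitors' own sum lay between 41.0 and 68.5 FPKM over all libraries. It was 61.0 ± 0.75 FPKM in treated and 57.8 ± 4.1 in untreated OCI-LY3, 48.3 ± 1.5 and 46.6 ± 2.4 in HT, 46.6 to 52.9 and 41.0 to 44.0 in the libraries of OCI-LY19, and 67.3 ± 1.1 and 60.8 ± 0.42 in SUDHL5. These sums carry no test, and transcript shares are not shares of dimers.

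**Figure D4:**
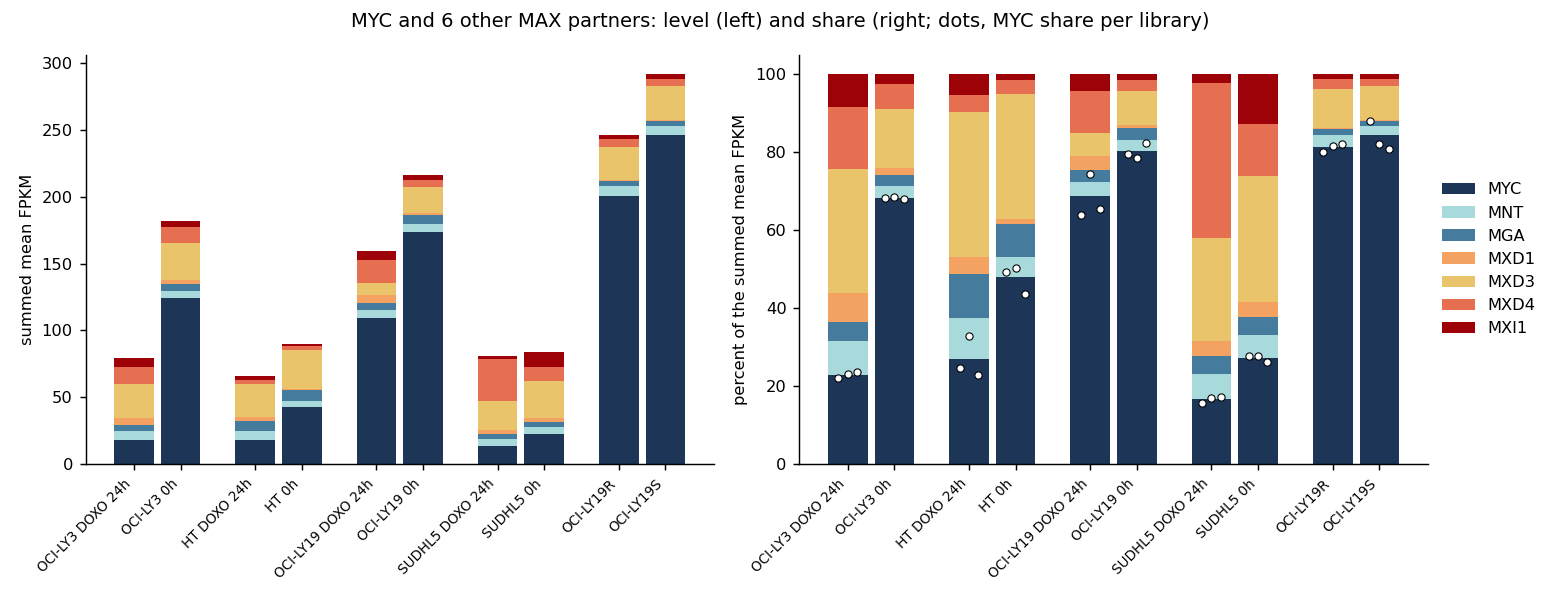
Left, mean FPKM of MYC and 6 competing MAX partners stacked by group; right, the same as percent of their sum, with dots for the MYC share in each library. Averaged over the library dots, MYC is 16.6% to 27.2% of the sum in SUDHL5 and 67.9% to 80.1% in OCI-LY19, and its share is lower in every treated group.

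Acquired resistance was not accompanied by a detectable change in the network. Of the 10 genes 8 passed the filter on low values in this table, and 0 of the 8 passed the test, beside 5.44% of all genes. No unadjusted p was below 0.05 for any of the 8 in limma or with voom on recovered reads. MYC had 182, 215 and 204 FPKM in OCI-LY19R and 338, 206 and 195 FPKM in OCI-LY19S, a change of -0.25 ± 0.21 (adjusted p = 0.518). OCI-LY19S replicate 1 stood apart from the others, and leaving out 1 library at a time moved the MYC change over -0.40 to -0.003, the last without that replicate. The same replicate was the highest of its group for CASC11, PVT1, MXD1, MXD4, MXI1 and MNT as well. MXI1 had 3.33, 3.24 and 3.38 FPKM in OCI-LY19R against 5.53, 3.32 and 3.0 FPKM in OCI-LY19S (-0.16 ± 0.18, adjusted p = 0.632, and 0.06 without OCI-LY19S replicate 1). MXD4 had the lowest adjusted p of the 8, with 4.75, 7.15 and 6.17 FPKM in OCI-LY19R and 5.90, 4.15 and 4.01 FPKM in OCI-LY19S (0.30 ± 0.17, adjusted p = 0.339, with 0.19 to 0.45 when 1 library was left out). PVT1, at 0.52 ± 0.09 FPKM in OCI-LY19R and 0.45 ± 0.11 FPKM in OCI-LY19S, and MXD1, at 0.97 ± 0.22 and 0.83 ± 0.25 FPKM, were too low to be tested. In the authors' deposited table the adjusted p was 0.311 or higher for all 10 genes, with a log2 fold change of OCI-LY19R over OCI-LY19S of -0.36 ± 0.20 for MYC. MYC was 81.2 ± 1.0% of the 7 factors in OCI-LY19R and 83.7 ± 3.9% in OCI-LY19S. With 3 libraries a group and replicate 1 apart, a change in MYC of modest size was not detectable.

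Among 3012 variable genes with a mean of at least 10 FPKM in at least 1 group, those whose log2 group means followed MYC most closely over the 8 groups were CASC11 (r = 0.999), SLC17A9, a vesicular nucleotide transporter (r = 0.963), PDCD11, a ribosome assembly factor (r = 0.957), POLR1B, a subunit of RNA polymerase I (r = 0.945), and BZW2 (r = 0.926). Those that ran most opposite to it were NDUFB1, a subunit of respiratory complex I (r = -0.987), CLSTN3 (r = -0.979), MAGEF1 (r = -0.973), CCDC189 (r = -0.969) and QPRT, an enzyme of NAD synthesis (r = -0.965). Of the other network genes, r with MYC ran from -0.41 for MXD3 to 0.35 for MAX. With 8 points that share libraries these are descriptions only.

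The genes that MYC is known to activate in growing cells fell broadly, and whether the fall of MYC had a part in this was not tested. Of 53 such genes on a list of targets, 50 were tested. In OCI-LY3, 44 fell and 1 rose, beside 14.3% of all genes lower and 40.4% higher. The median change was -1.21, beside 0.16 for all genes. RRS1, a ribosome assembly factor, averaged 8.40 ± 2.5 FPKM in treated and 44.9 ± 11 FPKM in untreated OCI-LY3 (-2.30, adjusted p = 3.87e-07), and MYBBP1A averaged 8.35 ± 2.4 and 41.7 ± 4.1 FPKM (-2.22, adjusted p = 1.63e-08). The 1 riser was SLC29A2, a nucleoside transporter (0.69, adjusted p = 0.00064). In OCI-LY19, 49 of 50 fell and 0 rose, beside 23.7% of all genes lower and 34.5% higher, with a median of -0.87 beside 0.08 for all genes. The largest falls there were those of LDHA, which makes lactate, at 50.2 ± 9.0 FPKM in treated and 200 ± 4.6 FPKM in untreated cells (-1.98, adjusted p = 1.19e-10), and HSPD1, the mitochondrial chaperonin, at 132 ± 19 and 363 ± 30 FPKM (-1.46, adjusted p = 3.83e-10).

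In HT 35 of 50 fell and 3 rose, beside 9.41% of all genes lower and 22.9% higher, with a median of -0.53 beside 0.06. RRS1 averaged 14.6 ± 4.1 FPKM in treated and 34.3 ± 4.0 FPKM in untreated HT (-1.21, adjusted p = 0.00139). The risers were LDHA (0.73), HK2 (0.65), a hexokinase, and SLC29A2 (1.29), the last named after its values were seen. LDHA, at 259 ± 22 FPKM in treated and 158 ± 37 FPKM in untreated HT, thus moved opposite to its fall in OCI-LY19. In SUDHL5, the line with the least MYC, 30 of 50 fell and 2 rose (RRP12 and NIP7), beside 19.9% lower and 18.6% higher, with a median of -0.36 beside 0.001. HK2 averaged 12.1 ± 0.09 FPKM in treated and 33.1 ± 1.1 FPKM in untreated SUDHL5 (-1.38, adjusted p = 2.04e-09), and LDHA 190 ± 3.0 and 442 ± 9.1 FPKM (-1.21, adjusted p = 2.82e-07). In all 4 lines 19 of the 50 fell, among them NCL, NPM1, ODC1, SRM and GNL3. The list median was -0.87 in OCI-LY19, with a MYC change of -0.69, and -0.53 in HT, with -1.24. The MYC changes of OCI-LY19 and HT did not differ past the threshold in limma (adjusted p = 0.0848). No test compared the list medians between lines, so no order is read from them. In OCI-LY19R against OCI-LY19S 0 of the 50 passed, and the median of 0.04 stood beside 0.05 for all genes.

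**Figure D5:**
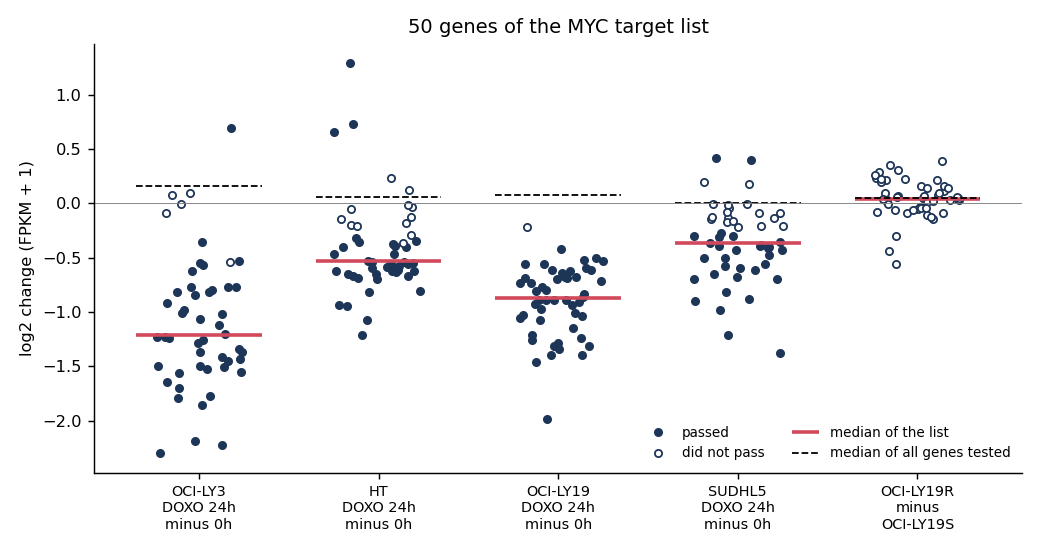
Log2 change of each of the 50 tested genes of the MYC target list in the 4 lines (treated minus untreated) and in OCI-LY19R minus OCI-LY19S; filled points passed, and the solid and dashed lines are the medians of the list and of all genes tested. The list median lies below that of all genes in each treated line, from -0.36 in SUDHL5 to -1.21 in OCI-LY3, and beside it for OCI-LY19R.

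The relatives of the network changed in some lines and not in others. MYCN was listed above 0 in 1 library, with 1 read. MYCL, another MYC paralog, rose in OCI-LY3 to 1.69 ± 0.13 FPKM in treated cells against 0.33 ± 0.03 FPKM in untreated cells (1.02, adjusted p = 1.33e-10). It also passed in HT at 0.23 ± 0.06 FPKM against 0.07 ± 0.02 FPKM (0.20, adjusted p = 0.0135), and it did not pass in OCI-LY19 or SUDHL5. MLX, the partner of the MONDO proteins, fell in OCI-LY19 (15.7 ± 0.48 FPKM in treated and 20.4 ± 1.1 FPKM in untreated cells, -0.36, adjusted p = 5.67e-05) and passed in no other line. Its partner MLXIP rose in OCI-LY19 (0.23, adjusted p = 0.0166). USF1, which binds the same E-box, rose in SUDHL5 (51.1 ± 1.3 FPKM in treated and 27.5 ± 0.33 FPKM in untreated cells, 0.87, adjusted p = 2.49e-08) and in OCI-LY19 (0.37, adjusted p = 0.000341), and USF2 fell in OCI-LY3 (-0.61, adjusted p = 0.000598) and in HT (-0.35, adjusted p = 0.0487).

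Genes of the repressor complexes that the MXD, MNT and MGA proteins recruit, listed together with the MYC partners ZBTB17 and WDR5, moved in both directions. Of 23 listed genes, 9 rose and 5 fell in OCI-LY3, 3 and 4 in HT, 5 and 14 in OCI-LY19, and 5 and 8 in SUDHL5. For these counts and those of the lists that follow, the shares of all genes higher and lower were 40.4% and 14.3% in OCI-LY3, 22.9% and 9.41% in HT, 34.5% and 23.7% in OCI-LY19, and 18.6% and 19.9% in SUDHL5. Many of the counts of genes that rose are near or below these shares, and nothing particular to a list is read from them. In all 4 lines ZBTB17 (also called MIZ1), through which MYC represses genes, rose and the heterochromatin protein CBX3 and WDR5, a MYC cofactor, fell. ZBTB17 averaged 13.3 ± 1.2 FPKM in treated and 7.04 ± 0.25 FPKM in untreated OCI-LY19 (0.83, adjusted p = 3.19e-08), and CBX3 69.4 ± 5.5 FPKM in treated and 116 ± 8.9 FPKM in untreated OCI-LY3 (-0.74, adjusted p = 1.92e-09). The largest falls were of SAP30, a SIN3 complex subunit, in SUDHL5 (16.2 ± 0.72 and 54.3 ± 1.6 FPKM, -1.68, adjusted p = 1.7e-09) and of TFDP1 in OCI-LY19 (43.7 ± 5.6 and 111 ± 5.8 FPKM, -1.34, adjusted p = 4.03e-11), in treated and untreated cells. Of 16 coactivator genes, 7 rose and 4 fell in OCI-LY3, 0 and 4 in HT, 3 and 6 in OCI-LY19, and 3 and 6 in SUDHL5, and RUVBL2, an ATPase that binds MYC, fell in all 4. Its partner RUVBL1 fell in OCI-LY3 (-0.97, adjusted p = 4.76e-09) and rose in SUDHL5 (0.59, adjusted p = 4.96e-06).

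Of 21 tested genes that set the stability of MYC protein, 7 rose and 8 fell in OCI-LY3, 5 and 6 in HT, 5 and 12 in OCI-LY19, and 4 and 10 in SUDHL5. FBXW7, the ubiquitin ligase subunit that marks MYC for destruction, rose in OCI-LY19 to 9.34 ± 1.2 FPKM in treated cells against 3.26 ± 0.18 FPKM in untreated cells (1.28, adjusted p = 7.01e-11) and in SUDHL5 to 5.08 ± 0.37 against 4.11 ± 0.05 FPKM (0.25, adjusted p = 0.016). It did not pass in OCI-LY3 or HT (-0.02 and 0.08). FBXO32, another ligase subunit, rose in OCI-LY19 (9.55 ± 1.8 and 0.90 ± 0.30 FPKM in treated and untreated cells, 2.47, adjusted p = 5.88e-13). USP28, which counters FBXW7, rose in OCI-LY3 (0.99, adjusted p = 1.16e-08) and HT (0.54, adjusted p = 9.35e-05). AURKA and PLK1, mitotic kinases that also stabilise MYC, PPP2CA and SET fell in all 4 lines, while the ligase TRIM32 rose in all 4.

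Of 20 listed regulators of MYC transcription, 3 rose and 9 fell in OCI-LY3, 1 and 10 in HT, 7 and 9 in OCI-LY19, and 2 and 10 in SUDHL5. CNBP, CTCF, FUBP1, HNRNPK and YY1, which bind the MYC promoter or its neighbourhood, fell in all 4. BCL6, the germinal center repressor, fell in OCI-LY3 to 22.9 ± 0.12 FPKM in treated cells against 78.2 ± 6.2 FPKM in untreated cells (-1.72, adjusted p = 8.24e-10), in HT (-1.09, adjusted p = 1.94e-06) and in SUDHL5 (-0.42, adjusted p = 0.00754). PRDM1, the plasma cell factor that represses MYC, rose in SUDHL5 to 1.43 ± 0.08 FPKM in treated cells against 0.11 ± 0.02 FPKM in untreated cells (1.12, adjusted p = 3.1e-10) and passed in no other line. E2F1 rose in OCI-LY3 (0.85, adjusted p = 2.59e-06) and HT (0.37, adjusted p = 0.0157) and fell in OCI-LY19 (-1.24, adjusted p = 1.7e-08). In OCI-LY19R against OCI-LY19S, 3 genes of these lists passed, RING1 (0.64, adjusted p = 0.0169), CREBBP (0.39, adjusted p = 0.045) and NOTCH2 (0.47, adjusted p = 0.0331, named after its values were seen), all higher in OCI-LY19R.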

How the data were processed

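RNA of 30 libraries was analysed from gene-level tables. Per the labels' protocols, polyadenylated RNA was made into directional libraries (NEBNext Ultra II) and sequenced on a NextSeq. Per the submitters' processing notes, Trimmomatic, STAR and featureCounts with build hg38 were used; neither versions nor the annotation release nor the strand setting is named in the sources used here. FPKM values of the 4 lines and of the pair OCI-LY19R and OCI-LY19S were deposited in separate tables, each normalized on its own, and no test crossed them. Per the file headers, the table of the pair adds the authors' own comparison, with mean signal, log2 fold change, a score for its error and one for its statistic, and p-values.

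Genes with at least 1 FPKM in at least 3 libraries of a table were tested with limma 3.58.1 (R 4.3.3; trended empirical Bayes, two-sided) on log2(FPKM + 1), with all groups of a table in 1 fit (16 residual degrees of freedom in the 4 lines, 4 in the pair). The 10 genes and all gene lists were chosen with earlier results of these data known. Genes outside the 10 were named by rule: in each list the 2 largest rises and 2 largest falls that passed without overlap at a mean of at least 5 FPKM, a few fixed regulators, and the 5 genes most and least like MYC. Likeness was taken over genes with a mean of at least 10 FPKM in at least 1 group and an SD of at least 0.5 over the group means on the log2 scale. All values came out as whole reads (100.0% within 0.01 read) when multiplied by a gene length, which gave the depths. With voom on those reads 7265 genes were higher and 2506 lower in OCI-LY3, 4041 and 1609 in HT, 6238 and 4219 in OCI-LY19, 3225 and 3343 in SUDHL5, and 539 and 361 in OCI-LY19R. Of the group pairs, only in HT did all same-numbered libraries deviate together (r = 0.167, 0.32 and 0.347). Replicate 3 of OCI-LY3 (r = 0.362) and replicates 1 and 2 of OCI-LY19 (r = 0.355 and 0.259) did so too. Names of same-numbered treated and untreated libraries share a prefix in HT, in OCI-LY3 and in replicates 1 and 3 of OCI-LY19. The main tests were unpaired in all lines, and the replicate block was an alternative. Between replicates of SUDHL5 14.0% to 26.9% of genes differed past sampling noise at the 5% level, against 31.5% to 65.0% in the other groups. All were kept as replicates, as labelled. Such shares cannot show whether libraries came from separate cultures, and the lower share in SUDHL5 is a limit on its replicates. Alternatives changed the pseudocount, filter, scaling, test, block, samples and a covariate for the ending of the library name. The fits were also run on simulated data with independent noise, the same spread in all groups and few genes changed. That setting did not include unequal spread among lines or same-numbered libraries that deviate together.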

Additional observations from a re-analysis of the deposited data

Results flagged for a closer look

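The doxorubicin response differed among the 4 lines for 8 of the 10 genes by limma's F test on the line-by-treatment terms, as it did for 72.2% of all genes tested. After quantile normalization, or median-of-ratios scaling, all 10 passed. The adjusted p was 3.24e-10 for MXI1, which fell in SUDHL5 and rose in the other 3 lines, and 2.75e-10 for PVT1 and 3.03e-08 for MXD4, which rose in OCI-LY19 and SUDHL5. It was 4.7e-07 for MXD1, which rose in 3 lines and not in SUDHL5. For MYC it was 1.98e-06 and for CASC11 2.13e-06, with the largest fall of both in OCI-LY3. For MXD3, with its largest fall in OCI-LY19, it was 5.16e-05, and for MNT, with its largest rise in HT, 0.00136.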

How the results depend on the processing

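Of the values of single genes under the alternatives, 696 kept their direction and side of the threshold, 19 lost the threshold, 10 gained it and 21 changed sign. Of those 21, 2 had passed: MNT in OCI-LY3, at -0.0073 (median-of-ratios scaling) and -0.018 (quantile normalization). The other 19 passed neither before nor after. With median-of-ratios scaling these were MXD4 in OCI-LY3 (-0.148), MAX in HT (-0.017), MGA in SUDHL5 (0.0088), and MAX (-0.029) and MGA (-0.045) in OCI-LY19R. With quantile normalization they were MXD4 in OCI-LY3 (-0.021) and MGA in OCI-LY19R (-0.050). Leaving out 1 library gave -0.183 to 0.022 for MXD4 and -0.167 to 0.096 for MGA in HT, -0.172 to 0.0028 for MNT in OCI-LY19, and -0.032 to 0.0098 for MGA in SUDHL5. It gave -0.129 to 0.013 for MXD3, -0.300 to 0.055 for MXI1 and -0.072 to 0.053 for MGA in OCI-LY19R. Counts of genes higher in OCI-LY3 were 1 with each of these scalings in place of 3, and counts lower were 6 and 5 in place of 3; the cause was not tested. With the filter at 5 FPKM the count higher in SUDHL5 was 1 in place of 2, since PVT1 was not among the 9 genes then tested. Leaving out 1 library at a time gave 2 to 3 higher and 2 to 3 lower in OCI-LY3, 3 and 2 in HT, 4 higher and 3 to 4 lower in OCI-LY19, 2 higher and 3 to 4 lower in SUDHL5, 0 and 0 in OCI-LY19R, 10 for the untreated lines and 8 to 9 for the response. The response count was 10 with median-of-ratios scaling, 10 with quantile normalization and 9 with the replicate block, which took in MGA (adjusted p = 0.00181). With the replicate block the counts were 3 higher and 3 lower in OCI-LY3, 3 and 3 in HT, 4 and 4 in OCI-LY19, and 2 and 4 in SUDHL5. Within a line the block changed no other call of a single gene than MXD3 in HT. MGA in OCI-LY3, whose call other alternatives ended, had an adjusted p of 0.000262 with the block, but outside HT same-numbered libraries did not all deviate together (lowest r -0.11). The library-name ending as a covariate changed no call, but all SUDHL5 libraries share one ending and all HT libraries another. PVT1 and MXD1 in OCI-LY19R and OCI-LY19S are limited by their low level.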
